A study of Homo sapiens with 6 samples.

Results

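NFAT5 and 5 genes of osmolyte accumulation, namely AKR1B1, SLC5A3, SLC6A6, SLC6A12 and HSPA4L, were described across 6 RNA sequencing libraries of HK-2 cells. They were picked by name from a table of 35035 genes, and all 6 were in it and among the 19350 genes with enough reads to be tested. Their difference between the groups was known when they were chosen, so the values below describe that difference and carry no test. HK-2 is an established, immortalised human cell line derived from proximal tubular epithelium, and the labels give its genotype as WT. In 3 libraries the cells had received an empty-vector plasmid, and in the other 3 a plasmid for overexpression of circAASS, a closed-loop RNA named after its host gene AASS. The cells of both groups were then kept at 1% oxygen for 24 h and reoxygenated for 12 h, and normal-oxygen cells were not analysed here. The promoter on the plasmid is not given in the sources used here, and nothing in the labels says that repeats came from separate cultures. P-values therefore measure only the spread between these libraries, which may be technical.

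NFAT5, also called TonEBP, is the transcription factor through which mammalian cells, those of the kidney medulla above all, answer a rise in tonicity. It binds a short element, the tonicity-responsive enhancer, and raises the genes that fill the cell with compatible osmolytes: aldose reductase, which makes sorbitol, and the carriers of myo-inositol, taurine and betaine. NFAT5 is controlled to a large part through its translation, phosphorylation, nuclear import and transactivating activity, and it also acts in hypoxia and in inflammatory signalling, where tonicity does not change.

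Values are RPKM, reads per exon length and per library size, and they can be compared between genes. The libraries held 45148425 to 58179562 reads, mates of a pair counted separately. Across genes, which are not independent replicates, Pearson's r of log values was 0.9894 to 0.9912 for pairs of libraries from the same group and 0.9762 to 0.98 for pairs from different groups. AASS, the host gene, stood at 1.2, 1.38 and 1.1 RPKM with empty vector and at 0.836, 0.977 and 0.827 RPKM with the circAASS plasmid. Its log2 fold change was -0.37 (SE 0.13; limma, adjusted p = 0.0677, and 0.0383 with library size alone). Gene sums do not separate circular from linear RNA, so they do not check the labels. Of 12 proximal tubule markers in the table, GGT1, SLC5A2 and SLC4A4 were at 1 RPKM or more, while 8, among them LRP2, CUBN and AQP1, averaged under 0.1 RPKM. The summed level of that list was 14.6 to 16.5 RPKM in the empty-vector libraries against 10.2 to 10.7 RPKM in the others, and the general renal epithelial markers summed to 328 to 343 and 366 to 408 RPKM. Of the 8 general markers, 3 rose and 2 fell, among them PAX8 from 25.0 to 42.3 RPKM and CDH6 from 13.5 to 4.89 RPKM (adjusted p = 0.000235 and 5.55e-05). Markers of the thick limb and distal tubule summed to 0.288 to 0.376 RPKM and 0.253 to 0.348 RPKM, those of the collecting duct to 0.979 to 1.21 and 1.27 to 2.23 RPKM, and non-epithelial markers to 104 to 108 and 79.8 to 102 RPKM, nearly all of it CD68. Most of the collecting duct sum was AVPR2, at means of 0.912 RPKM with empty vector and 1.73 RPKM with the circAASS plasmid. The other 8 of the 9 collecting duct markers averaged under 0.1 RPKM. No marker in the table was at 0 in all 6 libraries. RNAs without a poly(A) tail also went with the groups: RN7SK stood at 34.1 to 44.7 RPKM with empty vector and at 55.6 to 190 RPKM with the circAASS plasmid. The part of these markers and of RN7SK in the results below was not tested. In whole-culture RNA, fewer cells with a transcript and less of it per cell cannot be told apart.

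Promoter sequences are shown first because SLC5A3 and MRPS6, which both stood higher with the circAASS plasmid, start in the same window, and because AKR1B1 had the highest level of the 6 genes. RefSeq windows (GRCh38.p14) of 300 bases, 250 before and 50 after a start, were matched for 3 of the 6 genes, AKR1B1, SLC5A3 and HSPA4L; NFAT5, SLC6A6 and SLC6A12 had no window. The stretches printed lie before the start and outside annotated exons, and each is written on the strand of its gene. The AKR1B1 stretch is chr7:134459285-134459489 on the minus strand, the stretch shared by SLC5A3 and MRPS6 is chr21:34073328-34073522 on the plus strand, and the HSPA4L stretch is chr4:127783273-127783522 on the plus strand, before the start farthest downstream of the 3 in the table. Capitals mark TGGAAA, the core of the tonicity-responsive enhancer, and GGGCGG, the GC box, on either strand, where they read TTTCCA and CCGCCC on the printed strand.
AKR1B1: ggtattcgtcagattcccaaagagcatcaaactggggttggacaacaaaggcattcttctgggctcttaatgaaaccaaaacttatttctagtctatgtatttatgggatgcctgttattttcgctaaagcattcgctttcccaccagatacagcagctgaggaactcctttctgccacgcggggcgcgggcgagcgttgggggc
SLC5A3 and MRPS6: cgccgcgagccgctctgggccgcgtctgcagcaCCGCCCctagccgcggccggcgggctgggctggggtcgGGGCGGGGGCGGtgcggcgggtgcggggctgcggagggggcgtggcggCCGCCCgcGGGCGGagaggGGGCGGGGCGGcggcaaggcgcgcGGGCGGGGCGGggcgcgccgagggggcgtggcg
HSPA4L: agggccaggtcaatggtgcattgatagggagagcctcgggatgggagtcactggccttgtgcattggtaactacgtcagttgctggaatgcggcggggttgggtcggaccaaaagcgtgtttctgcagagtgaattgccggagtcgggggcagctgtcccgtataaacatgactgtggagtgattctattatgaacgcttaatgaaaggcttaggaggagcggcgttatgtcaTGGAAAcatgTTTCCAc

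TGGAAA occurred on either strand in 7285 of 35116 RefSeq windows (20.7%), GGGCGG in 45.0%, and the longer tonicity-responsive enhancer consensus, which begins with TGGAAA, in 4.92%. The window of SLC5A3 and MRPS6 held no TGGAAA and 9 occurrences of GGGCGG, and 82% of its bases were G or C. Neither AKR1B1 window held TGGAAA. The printed HSPA4L window held TGGAAA 2 times, on opposite strands a few bases apart, and both began a match to the consensus. Another HSPA4L window held TGGAAA 1 time. The HSPA4L window farthest upstream held no TGGAAA and 1 GGGCGG, and neither unprinted HSPA4L window held the consensus. Among tested genes with a window, TGGAAA was found for 22% of those higher with the circAASS plasmid (445 of 2023), 20.6% of those lower (396 of 1926) and 20.8% of those not called (1494 of 7183). The consensus was found for 5.78%, 4.57% and 4.45% of the same genes. A match is a run of letters and no measured binding site, and the windows do not reach enhancers farther away.

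The transcripts of AKR1B1 and of the carriers SLC5A3, SLC6A6 and SLC6A12 stood higher with the plasmid, by log2 fold changes of 0.77 to 2.11, while that of NFAT5 itself was 0.14. HSPA4L, a chaperone of the HSP110 family induced by osmotic stress, had groups that overlapped. Each gene is given below with its level in every library.

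NFAT5, the transcription factor, lies on chromosome 16 (69565094 to 69704666, plus strand, GRCh38), and the level is summed over its exons. It stood at 4.02, 4.0 and 3.84 RPKM in empty-vector libraries 1, 2 and 3, from 2975, 3348 and 3302 reads. With the circAASS plasmid it stood at 4.03, 4.02 and 4.44 RPKM, from 3171, 3834 and 3451 reads. In deposited RPKM the groups did not overlap only by the narrowest of margins, the highest empty-vector library and the lowest circAASS library both being at 4.02 RPKM, and the high circAASS library was the third. In scaled RPKM the empty-vector libraries were at 3.70 to 3.95 and the circAASS libraries at 4.14 to 4.46, so the gap depends on the scaling. Group means were 3.95 ± 0.10 and 4.16 ± 0.240 RPKM (SD, n = 3 each). On scaled RPKM this was a log2 fold change of 0.14 (SE 0.07, 95% interval -0.01 to 0.30), which exceeded that of 68.5% of all tested genes. With scaling by library size alone it was 0.072. Other annotated genes cover 10.1% of the exon bases of NFAT5, nearly all by AC012321.1 on the same strand, so that this share of its reads is uncertain.

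AKR1B1 encodes aldose reductase, which reduces glucose to the osmolyte sorbitol, the opening step of the polyol pathway. It lies on chromosome 7 (134442350 to 134459284, minus strand). It stood at 122, 107 and 113 RPKM in empty-vector libraries 1, 2 and 3 and at 355, 409 and 413 RPKM in the circAASS libraries. The groups were far apart, the lowest circAASS library being the first. The means were 114 ± 7.71 and 393 ± 32.5 RPKM, from 61801 and 221201 reads in all. The log2 fold change was 1.86 (SE 0.07), a 3.62-fold higher level and the 27th largest of the tested genes. No other annotated gene overlaps its exons, and of its pseudogenes in the table the highest value in any library was 0.433 RPKM.

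SLC5A3 encodes SMIT1, which carries myo-inositol into the cell together with sodium. Its exons lie on chromosome 21 (34073570 to 34106262, plus strand), within the span of MRPS6 (34073224 to 34143034), a gene for a protein of the mitochondrial ribosome that starts in the same region. SLC5A3 stood at 3.62, 3.34 and 3.20 RPKM with empty vector, from 1893, 1972 and 1943 reads. In circAASS libraries 1, 2 and 3 the level was 12.2, 14.3 and 16.5 RPKM, from 6761, 9622 and 9062 reads. Every circAASS library was over 3 times the highest empty-vector library, and the spread within the circAASS group was the wider one. The means were 3.39 ± 0.216 and 14.3 ± 2.17 RPKM, with a log2 fold change of 2.11 (SE 0.10), 4.32-fold and the 16th largest of the tested genes. With a pseudocount of 1 in place of 0.1 the log2 fold change was 1.86.

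SLC6A6 encodes TauT, the sodium- and chloride-coupled carrier of taurine (chromosome 3, 14402576 to 14489349, plus strand). It stood at 7.10, 6.45 and 6.40 RPKM with empty vector and at 11.4, 9.62 and 11.7 RPKM with the circAASS plasmid. The groups did not overlap, and the lowest circAASS library was the second. The means were 6.65 ± 0.390 and 10.9 ± 1.1 RPKM, with a log2 fold change of 0.77 (SE 0.09), the 526th largest of the tested genes.

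SLC6A12 encodes BGT1, the carrier of betaine and GABA (chromosome 12, 190077 to 214570, minus strand). It stood at 0.00839, 0.0223 and 0.0289 RPKM with empty vector, from 2, 6 and 8 reads. With the circAASS plasmid the levels were 0.130, 0.241 and 0.124 RPKM, from 33, 74 and 31 reads. All 6 values are low, the groups did not overlap, and the second circAASS library was the highest. SLC6A12 had enough reads to be tested only through the circAASS group. Reads per library total were 8.35 times as many with the circAASS plasmid, from 138 and 16 reads in all, with an exact 95% interval of 4.96 to 15. That interval covers counting error only, and since mates were counted separately it is too narrow. The log2 fold change was 1.15 (SE 0.21) with the pseudocount of 0.1, 0.20 with a pseudocount of 1 and 2.62 with 0.01, so its size is set by the pseudocount.

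HSPA4L, also called APG-1 or OSP94, lies on chromosome 4 (127781821 to 127840733, plus strand). It stood at 4.56, 5.27 and 4.99 RPKM with empty vector and at 4.92, 5.08 and 5.05 RPKM with the circAASS plasmid. In deposited RPKM the circAASS libraries lay inside the range of the empty-vector libraries. In scaled RPKM the circAASS libraries were at 5.07 to 5.23 and the empty-vector libraries at 4.48 to 5.15, so the groups overlapped there too. The means were 4.94 ± 0.358 and 5.02 ± 0.0847 RPKM, with a log2 fold change of 0.10 (SE 0.07, 95% interval -0.06 to 0.26). Genes on the opposite strand cover 6.19% of its exon bases, and that share of its reads is uncertain.

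**Figure D1:**
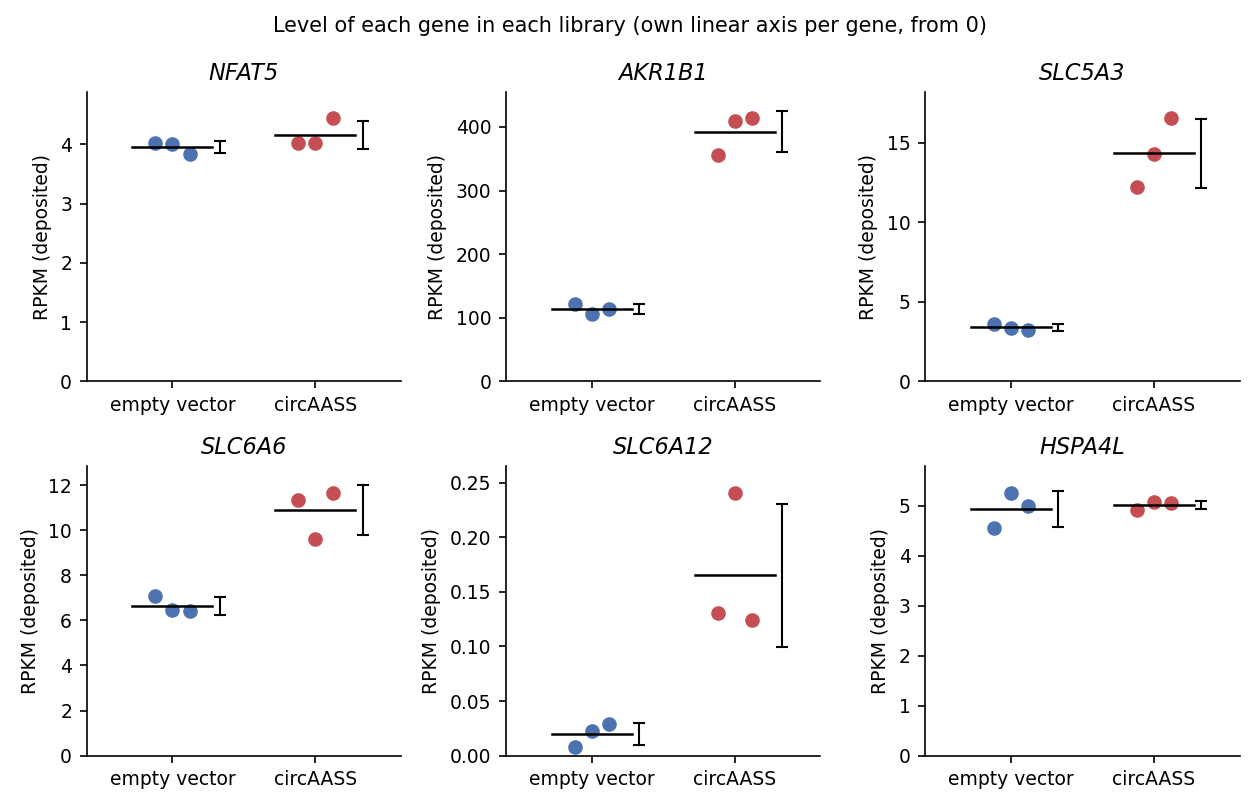
Deposited RPKM (vertical axis, linear, from 0, its own range for each gene) of the 6 genes in the 3 empty-vector libraries (blue) and the 3 circAASS libraries (red). Points are libraries 1 to 3 from left to right, bars are group means and whiskers the SD; AKR1B1, SLC5A3, SLC6A6 and SLC6A12 show separate groups, HSPA4L groups that overlap, and NFAT5 groups that nearly touch.

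By the threshold used for all genes, an adjusted p under 0.05, 4 of the 6 genes were called higher and 0 lower, where 16.0% of all tested genes were called higher and 16.3% lower. The groups did not overlap for 5 of the 6, all higher with the circAASS plasmid, where 23.5% of all tested genes had no overlap in that direction and 24.4% in the other. Since the genes were chosen on this contrast, these calls are no test of them, and nothing is read from either count. SLC6A12, among the 4, had enough reads to be tested only through the circAASS group. The median log2 fold change was 0.96 over the 6 genes and -0.01 over all tested genes. The 0.96 lies midway between SLC6A6 (0.77) and SLC6A12 (1.15), and the size of SLC6A12 is set by the pseudocount. Nothing is read from this median either. Calls over all genes were 49.5% higher with trimmed-mean scaling (3091 higher, 3152 lower) and 34.9% higher with library size alone (2159 higher, 4023 lower), with a median of -0.08.

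**Figure D2:**
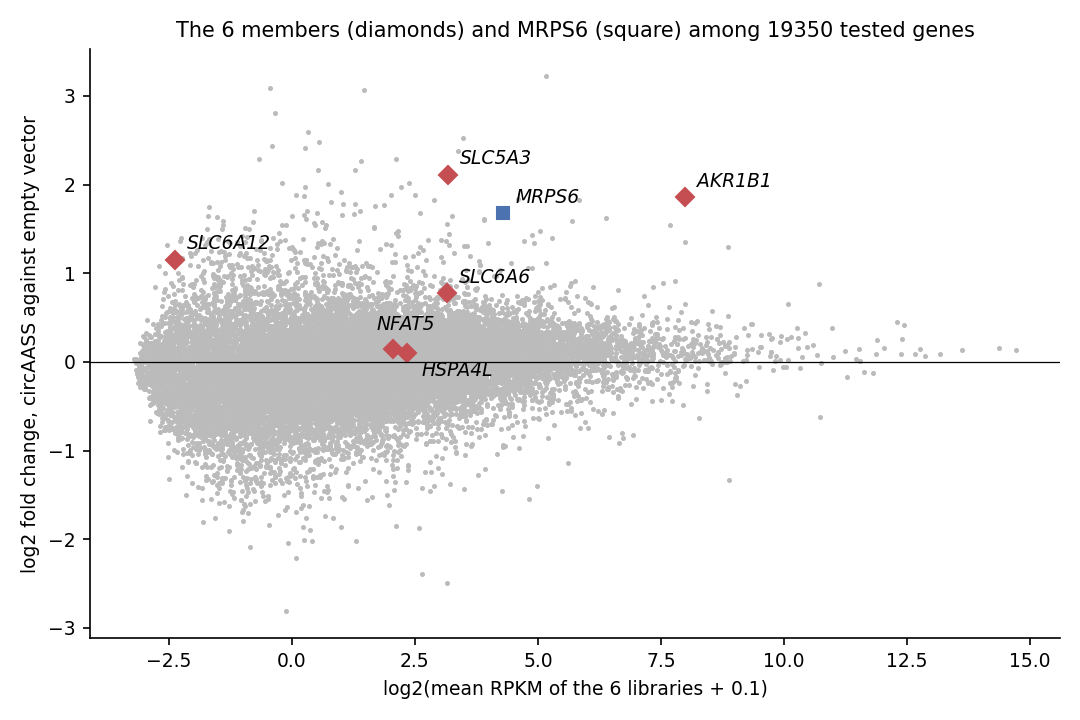
Log2 fold change of scaled RPKM + 0.1, circAASS against empty vector (vertical axis), against log2 of the mean RPKM of the 6 libraries + 0.1 (horizontal axis) for the 19350 tested genes in grey. The 6 genes are diamonds and MRPS6 a square; AKR1B1 combines a high level with a log2 fold change of 1.86, while NFAT5 and HSPA4L lie near 0.

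Per length, the order of the levels with empty vector was AKR1B1, SLC6A6, HSPA4L, NFAT5, SLC5A3 and SLC6A12. With the circAASS plasmid it was AKR1B1, SLC5A3, SLC6A6, HSPA4L, NFAT5 and SLC6A12, so that SLC5A3 went from the fifth place to the second. The libraries of neighbours in the order did not overlap at any step in either group. The smallest ratio between libraries of neighbours was that of SLC5A3 and SLC6A6 with the circAASS plasmid, with a lowest SLC5A3 value of 12.2 and a highest SLC6A6 value of 11.7 RPKM. The next smallest was that of NFAT5 and SLC5A3 with empty vector, where the lowest NFAT5 value was 3.84 and the highest SLC5A3 value 3.62 RPKM. Other annotated genes cover 10.1% of the exon bases of NFAT5, so this step is less certain than the spread of libraries shows. The carriers SLC5A3, SLC6A6 and SLC6A12 together gave 9.63 to 10.7 RPKM per empty-vector library and 23.7 to 28.3 RPKM per circAASS library.

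Within the circAASS group, AKR1B1, SLC5A3 and MRPS6 were all lowest in library 1, whereas SLC6A6 was lowest and SLC6A12 highest in library 2. On the log2 scale, library 1 lay 0.12 below the circAASS mean for AKR1B1, 0.20 below for SLC5A3 and 0.17 below for MRPS6. MRPS6 stood at 10.3, 9.01 and 9.56 RPKM with empty vector and at 25.6, 31.3 and 31.7 RPKM with the circAASS plasmid. It rose by a log2 fold change of 1.68 (SE 0.09; limma, adjusted p = 9.07e-05). SLC5A3 stood at 0.335 to 0.371 of the MRPS6 level with empty vector and at 0.457 to 0.521 with the circAASS plasmid, so the ratio did not overlap between the groups. MRPS6 covers 2.36% of the exon bases of SLC5A3, and SLC5A3 covers 6.35% of those of MRPS6, on the same strand; the reads of these bases cannot be assigned to either.

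**Figure D3:**
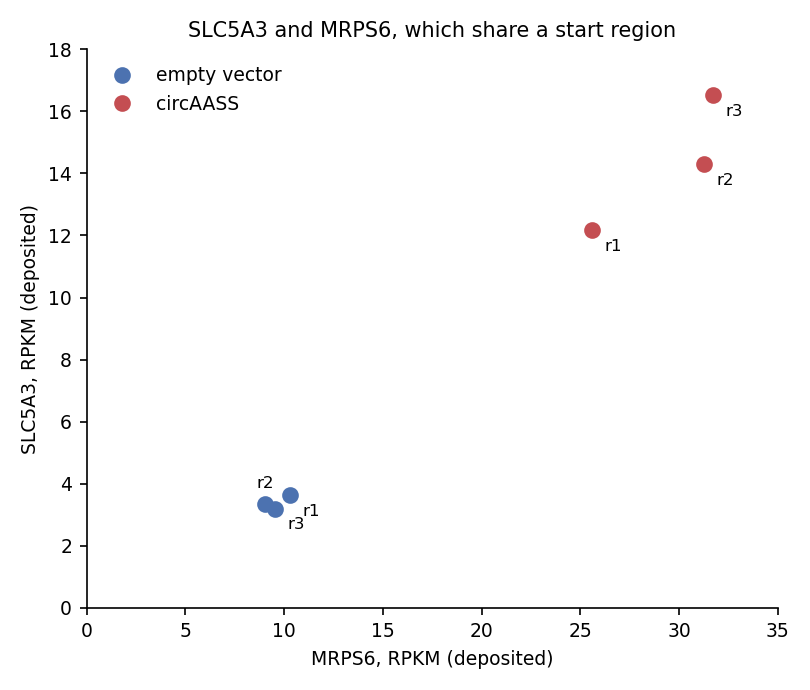
RPKM of SLC5A3 (vertical axis) against RPKM of MRPS6 (horizontal axis) in each library, both linear from 0, with the library number beside each point. The empty-vector libraries (blue) lie between 3.20 and 3.62 RPKM of SLC5A3 and the circAASS libraries (red) between 12.2 and 16.5 RPKM, with library 1 the lowest of the circAASS group for both genes.

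Genes with the most similar pattern over the 6 libraries were found by the Euclidean distance of centred log2 values among the 13342 tested genes that averaged 1 RPKM or more. For AKR1B1 they were MRPS6 (distance 0.23), the Wnt antagonist DKK1 (0.24) and TMEM171 (0.25), and SLC5A3 was the 13th nearest. For SLC5A3 they were the serpin SERPINB7 (0.25), DKK1 (0.26) and TMEM171 (0.30). DKK1 stood at 1.77 to 1.95 RPKM with empty vector and at 6.67 to 7.76 RPKM with the circAASS plasmid. For SLC6A6 they were RP11-309L24.2, RP11-104N10.2 and RP1-261G23.7, with log2 fold changes of 0.71 to 0.79. For NFAT5 they were PCF11, PTPN11 and CDT1, and for HSPA4L they included ACO1 and TRIM35. These genes near NFAT5 and HSPA4L had log2 fold changes of 0.09 to 0.14. This measure follows the size of the group difference as well as the pattern within groups, and it rests on 6 libraries.

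Neighbours on the chromosome were compared next, up to 5 tested genes on each side. Over all tested genes 16.0% were called higher and 16.3% lower, and nothing is read from the neighbour counts. Beside SLC5A3, 2 of 10 neighbours were higher and 0 lower: MRPS6 and RCAN1, an inhibitor of calcineurin, which went from 4.41 to 6.50 RPKM (log2 fold change 0.62, limma, adjusted p = 0.000771). Beside AKR1B1, 2 of 10 were higher and 1 lower, and the next gene, BPGM, went from 2.98 to 4.07 RPKM (log2 fold change 0.51, adjusted p = 0.00401). Beside SLC6A6, 1 was higher and 3 lower of 10. The higher one was GRIP2, at 0.0526 and 0.132 RPKM, which lies antisense to SLC6A6 over 2.90% of the exon bases of SLC6A6, and whether the authors' counting used strand is not given in the sources used here. GRIP2 failed the threshold in 4 alternatives, among them leaving out empty-vector library 2 or 3 or the second of circAASS (adjusted p 0.00725 to 0.149). Beside NFAT5, NIP7 and NQO1, an antioxidant reductase that is the next gene, were higher and WWP2 lower of 10, with NQO1 at 7.31 and 8.29 RPKM (log2 fold change 0.25, adjusted p = 0.031). NQO1 failed the threshold in 7 alternatives, among them library size alone and leaving out empty-vector library 1 or 2 or either of the last 2 circAASS libraries (adjusted p 0.0175 to 0.121). Of the 5 neighbours of SLC6A12 on its only side with tested genes 0 were higher and 2 lower, and of the 10 of HSPA4L 3 were higher and 2 lower.

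**Figure D4:**
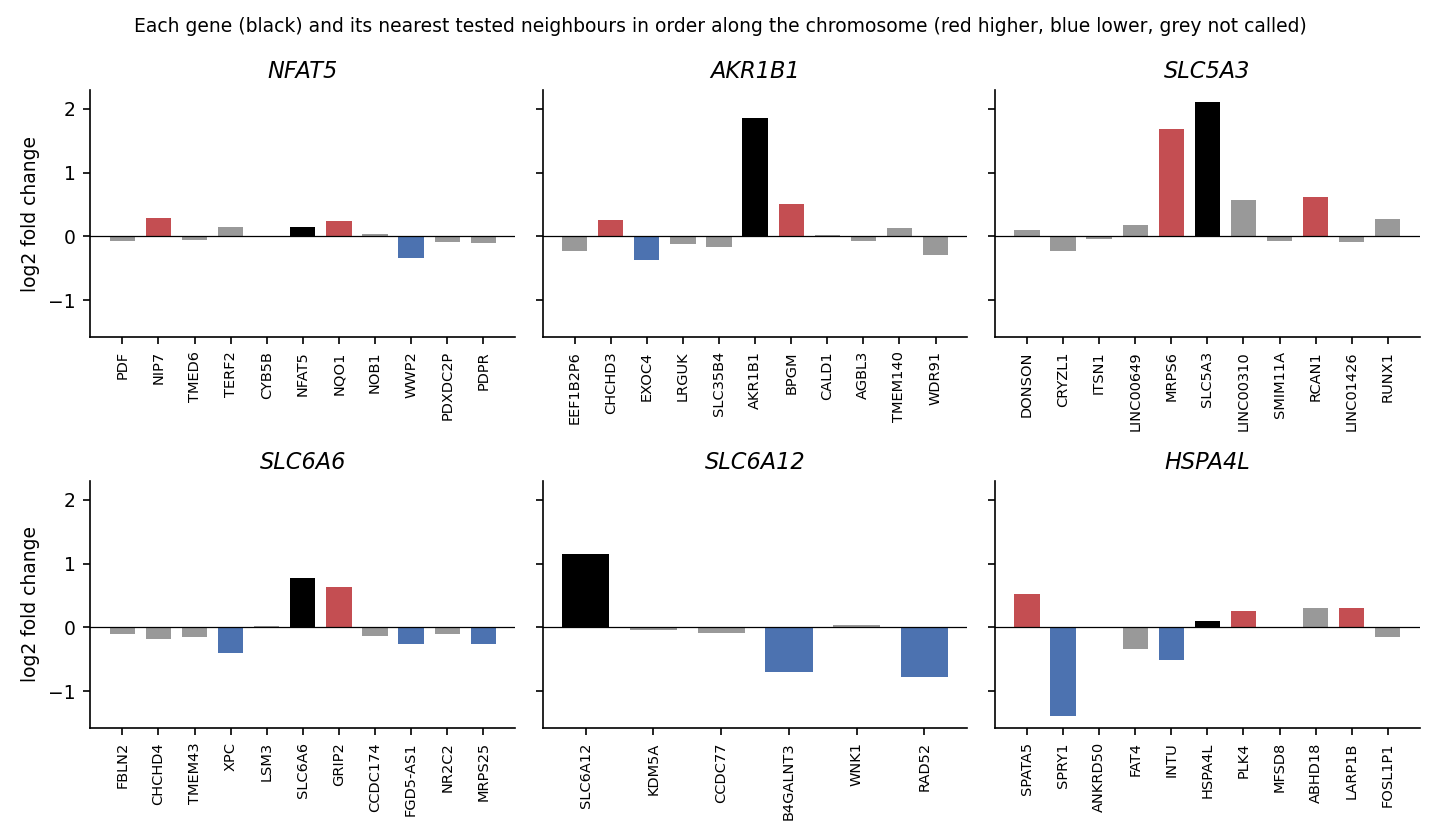
Log2 fold change (vertical axis, circAASS against empty vector) of each of the 6 genes (black) and of the nearest tested genes on either side, in order along the chromosome (horizontal axis, not to scale). Red bars passed higher, blue bars lower and grey bars did not pass an adjusted p of 0.05; of the neighbours drawn, MRPS6 beside SLC5A3 has a log2 fold change of 1.68 and SPRY1 beside HSPA4L of -1.39, and all others lie between -1 and 1.

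Beside the counts of other genes of osmolyte metabolism stand the 16.0% higher and 16.3% lower calls over all tested genes, and a share near these is no result about a list. The lists were chosen with earlier results of these data known, so nothing is read from shares far from these either. Some genes stand in more than 1 list, so the list counts are not separate. In the polyol and fructose pathway, 1 of 13 tested genes rose, 1 fell and 11 did not pass (median log2 fold change 0.02). SORD, which turns sorbitol into fructose, stood at 1.61, 1.87 and 1.68 RPKM with empty vector and at 1.6, 1.62 and 1.93 RPKM with the circAASS plasmid, so the groups overlapped (log2 fold change 0.065, adjusted p = 0.665, and -0.0042 with library size alone). AKR1B1 stood at 57.0 to 75.9 times the level of SORD with empty vector and at 214 to 252 times with the circAASS plasmid. The riser was the hexokinase HK1, at 17.9, 17.4 and 18.2 RPKM against 25.0, 26.3 and 27.0 RPKM (log2 fold change 0.62, adjusted p = 0.000244). TKFC, a kinase of fructose breakdown, went from 0.530 to 0.256 RPKM (adjusted p = 0.0377), but it no longer passed when empty-vector library 1, 2 or 3 or circAASS library 1 or 3 was left out, or with no filter on low reads (adjusted p 0.0147 to 0.111 over all alternatives).

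Of 16 tested genes of myo-inositol metabolism, 3 rose, 2 fell and 11 did not pass (median 0.03). The risers were MRPS6, listed only as the partner of SLC5A3 at its locus, IPMK, an inositol polyphosphate kinase, from 1.62 ± 0.217 to 2.68 ± 0.115 RPKM, and INPP1, an inositol phosphatase, from 2.21 ± 0.250 to 2.95 ± 0.0354 RPKM (adjusted p = 0.00262 and 0.011). IMPA2, which releases free myo-inositol from its phosphate, fell from 2.56 ± 0.107 to 1.55 ± 0.0711 RPKM (log2 fold change -0.62, adjusted p = 0.00244). Its relative IMPA1 had the higher level, at 5.28 and 4.85 RPKM, and did not pass (log2 fold change -0.05, adjusted p = 0.621). ISYNA1, the synthase that makes inositol phosphate from glucose phosphate, went from 3.33 to 2.62 RPKM (adjusted p = 0.0342). The ISYNA1 call was lost with the replicate number as a block, without the filter and without any library but circAASS library 3 (adjusted p 0.0205 to 0.0991).

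Of 11 tested genes of taurine and betaine metabolism, 2 rose, 4 fell and 5 did not pass (median -0.12). SLC6A8, the creatine carrier, rose from 5.69 ± 0.194 to 6.91 ± 0.440 RPKM (adjusted p = 0.00589), and the choline carrier SLC44A1 from 4.0 to 4.44 RPKM, with a call that 9 of 14 alternatives lost (adjusted p 0.0325 to 0.144), among them 5 of the 6 that left out a library, the exception being empty-vector library 1. CHDH, which oxidises choline on the way to betaine, fell from 0.586 ± 0.10 to 0.286 ± 0.0379 RPKM (log2 fold change -0.77, adjusted p = 0.0124). ALDH7A1, which can oxidise betaine aldehyde, fell from 11.3 to 9.12 RPKM (adjusted p = 0.0134, 0.0556 without empty-vector library 2). The others were GGT1 (9.25 to 7.11 RPKM) and the choline carrier SLC44A2 (3.16 to 1.86 RPKM). Of the genes that make taurine, CSAD stood at 4.20 and 3.67 RPKM (adjusted p = 0.44) and ADO at 4.11 and 4.10 RPKM (adjusted p = 0.643).

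Glycerophosphocholine is a further osmolyte of the kidney medulla. Of the 13 genes of its metabolism, 4 rose, 1 fell and 8 did not pass (median 0.09). PNPLA6, the phospholipase that makes glycerophosphocholine, stood at 4.93, 4.30 and 4.11 RPKM with empty vector and at 7.42, 7.78 and 8.58 RPKM with the circAASS plasmid (log2 fold change 0.89, adjusted p = 0.000621). GPCPD1, a phosphodiesterase that breaks it down, stood at 0.497, 0.760 and 0.744 RPKM and at 0.183, 0.233 and 0.230 RPKM (log2 fold change -1.21, adjusted p = 0.0035). The groups did not overlap for either gene. CHKA, a choline kinase, rose from 4.75 ± 0.105 to 7.11 ± 0.815 RPKM, the lysophospholipase LYPLA1 from 4.79 to 6.04 RPKM and the phosphodiesterase GDE1 from 3.11 to 4.33 RPKM (adjusted p = 0.00175, 0.00678 and 0.00819). GDPD5, the phosphodiesterase whose loss is tied to glycerophosphocholine accumulation under high salt, stood at 0.533 and 0.459 RPKM (adjusted p = 0.549).

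Of 14 tested genes among other targets of NFAT5 or of high tonicity, 10 rose, 1 fell and 3 did not pass (median 0.43). The cytokine IL6 stood at 18.1, 16.3 and 18.4 RPKM with empty vector and at 39.9, 44.3 and 42.9 RPKM with the circAASS plasmid (log2 fold change 1.34, adjusted p = 8e-05). SLC38A2, the neutral amino acid carrier SNAT2, stood at 23.5, 21.0 and 21.9 RPKM and at 48.1, 58.1 and 60.9 RPKM (log2 fold change 1.4, adjusted p = 0.00015). Both genes had groups far apart, and both are also targets of other stress and inflammatory factors. LTB, a lymphotoxin, rose from 1.25 ± 0.144 to 2.45 ± 0.157 RPKM (adjusted p = 0.00111). HSPA1A rose from 116 ± 1.18 to 141 ± 5.70 RPKM (adjusted p = 0.00189), but it has a near-identical copy in HSPA1B, so the split of reads between them is uncertain. HSPA1B, VEGFC, ATP1B1 and S100A4 also rose, with log2 fold changes of 0.32 to 1.39. CCL2, also among the 10 and with 22 reads in all with empty vector and 64 with the circAASS plasmid, reached the read minimum only through the circAASS group. Its call was lost in 5 alternatives, among them leaving out empty-vector library 1 or 3 or the first of circAASS (adjusted p 0.0279 to 0.122). SGK1, a salt-induced kinase, went from 3.68 to 2.89 RPKM (log2 fold change -0.27, adjusted p = 0.0488). 9 of 14 alternatives lost the SGK1 call, among them those without empty-vector library 1, 2 or 3 and without circAASS library 1 or 3 (adjusted p 0.0238 to 0.124). The aquaporins AQP1, AQP2 and AQP5 had too few reads to be tested.

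Among relatives, partners and regulators of NFAT5, 9 of 31 tested genes rose, 1 fell and 21 did not pass (median 0.10). The calcineurin-dependent relatives NFATC1, NFATC3 and NFATC4 stood at 0.663 and 0.674, 1.98 and 2.34, and 0.155 and 0.101 RPKM, and did not pass (adjusted p = 0.718, 0.069 and 0.175), although NFATC3 passed without circAASS library 1 (adjusted p = 0.0336). XPOT, a nuclear export receptor, rose from 24.9 ± 1.18 to 32.7 ± 0.368 RPKM, and DHX9, an RNA helicase that binds NFAT5, from 35.2 ± 0.369 to 43.3 ± 2.25 RPKM (adjusted p = 0.000993 and 0.00177). TRAF2, a signalling adaptor, rose from 11.9 to 15.5 RPKM and FYN, a kinase activated by high tonicity, from 3.94 to 5.0 RPKM (adjusted p = 0.00265 and 0.00357). The phosphatase PTPN6 fell from 3.39 ± 0.219 to 2.24 ± 0.259 RPKM (adjusted p = 0.00688). The log2 fold changes of these 4 risers were 0.37 to 0.46.

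Of 24 tested genes of cell volume regulation, 6 rose, 0 fell and 18 did not pass (median 0.08); with library size alone 1 fell. STK39, the kinase SPAK that acts on sodium and chloride cotransporters, stood at 9.81, 9.47 and 10.4 RPKM with empty vector and at 15.8, 16.5 and 17.5 RPKM with the circAASS plasmid (log2 fold change 0.81, adjusted p = 0.000175). The groups did not overlap. LRRC8D and LRRC8E, subunits of the volume-regulated anion channel, rose from 4.03 to 5.95 and from 1.95 to 2.47 RPKM (adjusted p = 0.00195 and 0.0113), while the obligatory subunit LRRC8A stood at 13.9 and 14.1 RPKM (adjusted p = 0.352). The potassium channel KCNK5 rose from 0.688 ± 0.147 to 1.56 ± 0.216 RPKM (log2 fold change 1.15, adjusted p = 0.00301).

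HSPA4L was set beside the other HSP70 and HSP110 chaperones and their cofactors, of which 11 of 20 rose, 3 fell and 6 did not pass (median 0.32). HSPA1A and HSPA1B are among these 11 and were also counted above among the other targets of NFAT5 or of high tonicity. Its HSP110 relatives HSPH1, HSPA4 and HYOU1 all rose, HSPH1 from 36.8 ± 1.41 to 64.9 ± 4.99 RPKM (log2 fold change 0.89, adjusted p = 0.000249), HYOU1 from 27.4 to 36.9 RPKM (0.50, adjusted p = 0.00104) and HSPA4 from 78.0 to 94.9 RPKM (0.36, adjusted p = 0.00217). The log2 fold change of HSPA4L was 0.10, and the difference between it and these relatives was not tested. HSPA5, which resides in the endoplasmic reticulum, went up from 309 ± 16.0 to 438 ± 26.4 RPKM, and HSPA9, which resides in mitochondria, from 127 to 157 RPKM. HSPA12A fell from 7.05 to 4.73 RPKM (adjusted p = 0.00204). The nucleotide exchange factor SIL1 fell from 15.6 to 12.8 RPKM, which did not pass when empty-vector library 1 or 2 was left out (adjusted p up to 0.062). The heat-inducible HSPA6 went from 0.331 to 0.152 RPKM, which did not pass with no filter or when any library but the third of empty vector or the second of circAASS was left out (adjusted p up to 0.0913).

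The closest families of the carriers and of aldose reductase had mostly too few reads to be tested. Of 16 SLC6 genes in the table besides SLC6A6 and SLC6A12, 5 had enough reads: the glycine carrier SLC6A9 rose from 0.381 ± 0.0510 to 0.826 ± 0.0477 RPKM (log2 fold change 1.01, adjusted p = 0.00261), as did SLC6A8. SLC6A17 went from 0.648 to 0.313 RPKM (adjusted p = 0.0175), which did not pass with no filter or when empty-vector library 2 was left out (adjusted p up to 0.057), and the other 2 did not pass. SLC6A13, a close relative of SLC6A12, had too few reads to be tested, at 0 to 0.0261 RPKM with empty vector and 0.0197 to 0.0796 RPKM with the circAASS plasmid. Of 10 SLC5 genes in the table, 3 were tested, and SLC5A2, the glucose carrier SGLT2, a proximal tubule marker, fell from 3.85 ± 0.389 to 1.87 ± 0.177 RPKM (log2 fold change -0.93, adjusted p = 0.00114). SLC5A11, the myo-inositol carrier SMIT2, averaged 0.00372 and 0.0162 RPKM, too few reads to be tested. Of 7 tested aldo-keto reductases, 0 rose and 2 fell. AKR7A2 went from 7.24 to 4.8 RPKM (adjusted p = 0.029) and AKR7A3 from 0.376 to 0.131 RPKM (adjusted p = 0.0287). AKR7A2 failed the threshold in 6 alternatives, among them leaving out any of the 3 empty-vector libraries or the third of circAASS (adjusted p up to 0.0836). AKR7A3 failed it in 5, among them leaving out circAASS library 1 or 2 or library 1 or 3 of the empty-vector group (adjusted p up to 0.0962). AKR1A1, an aldehyde reductase, stood at 10.7 and 10.2 RPKM (adjusted p = 0.994), and AKR1B10, a close relative of AKR1B1, averaged 0.0715 and 0.0649 RPKM.

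**Figure D5:**
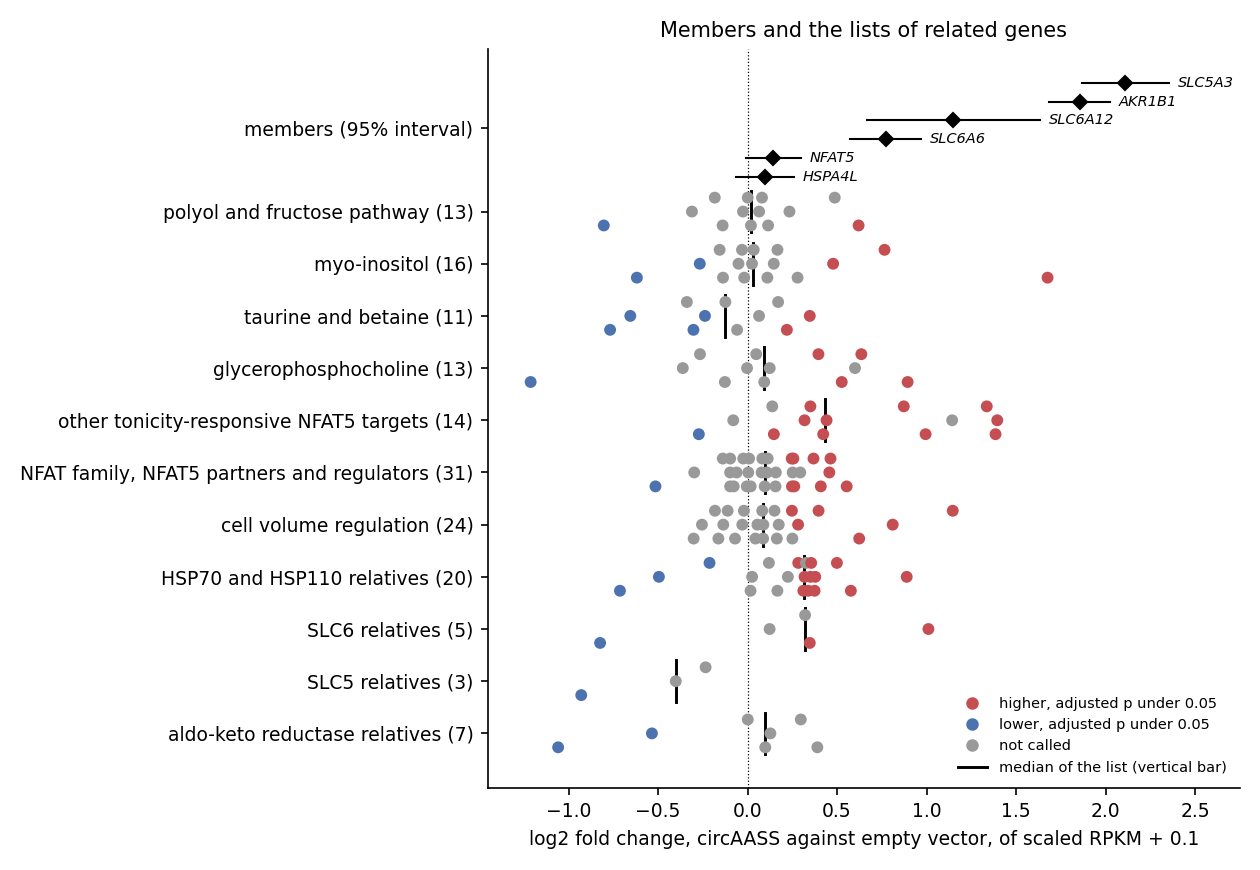
Log2 fold change of scaled RPKM + 0.1, circAASS against empty vector (horizontal axis), of the 6 genes (diamonds with 95% interval, a description and no test) and of the tested genes of each related list (circles, number of genes in brackets, vertical offsets only to separate points). Red circles were called higher, blue lower and grey not called at an adjusted p under 0.05, and vertical bars are list medians. Of 14 other genes listed as targets of NFAT5 or of high tonicity 10 are red, where 16.0% of all tested genes were called higher. Their dependence on NFAT5 was not tested. The polyol list centres near 0. Lists were chosen with earlier results of these data known, and a gene that stands in several lists is drawn in each.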

How the data were processed

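RNA of HK-2 cells was made into 6 libraries by a kit for stranded mRNA, with paired reads, per the labels' protocols; the sample titles gave the groups. The authors deposited RPKM per gene; per the submitters' processing notes, reads were trimmed with Trimmomatic 0.36 and counted with featureCounts of Subread 1.5.1, edgeR 3.12.1 was used, and the genome build was GRCh38. For the aligner, the annotation and the strand setting nothing is given in the sources used here. The treatment label, used here, gives 12 h of reoxygenation, and the series text names 24 h.

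Reads were worked out from RPKM and exon lengths of GENCODE 29; they came out whole, to within 0.02 reads in all 6 libraries, for 22385 of 24697 genes (90.6%), and other genes received the smallest length that made them whole. Names of 28 genes had become dates and were left out. The recovered reads served only for scaling, filtering and depth. RPKM were divided by trimmed-mean factors (30% of ratios, 5% of levels), 0.958 to 1.036. limma 3.58.1 (R 4.3.3) tested log2(scaled RPKM + 0.1) with group as the only term, an intensity trend and a robust prior, in 19350 genes, those with 10 or more reads (scaled to the median library) in 3 libraries and 15 or more in total. The two-sided p was adjusted over these genes by Benjamini-Hochberg, with a threshold of 0.05, and this fit is meant wherever an adjusted p is printed. Fold changes on this scale understate those of low genes, and means ± SD are of the deposited RPKM. Alternatives were other scalings, pseudocounts, filters and priors, a replicate block and leaving out each library.

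The 6 genes, the gene lists and the settings were chosen with earlier results of these data known. Of each list, up to 4 genes with the smallest p among those called were named, and every gene of a direction with 5 or fewer calls; also the 3 genes nearest in pattern to each of the 6 with a mean of at least 1 RPKM, and overlapping or adjacent genes. Outside this rule, SORD, CSAD, ADO, GDPD5, IMPA1, NFATC1, NFATC3, NFATC4, LRRC8A, HSPA4, HSPA1B, VEGFC, ATP1B1, S100A4, CCL2, SLC6A13, SLC5A11, AKR1A1, AKR1B10, RCAN1, NIP7, WWP2, SPRY1, PAX8, CDH6 and AVPR2 were named after their values were seen. A few genes that the lists or the rule hold are not reported here.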

Additional observations from a re-analysis of the deposited data

How the results depend on the processing

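The 14 alternatives were run on the 6 genes, the counts, the list medians, 44 genes named from the lists by the rule and 25 other named genes. None of the 6 genes and 44 genes changed sign under those run. The limits are those of 3 libraries a group, RPKM without deposited counts, an unstated strand setting and a plasmid comparison with no other control. SLC6A12 has 2 to 8 reads per empty-vector library, so its size is the least certain, and it has no value under a mean of at least 1 RPKM. Over all genes 3091 were higher and 3152 lower, with 2094 and 2039 without empty-vector library 2, where leaving out each library in turn gave 2094 to 2791 and 2039 to 2883. The 6 libraries' numbers did not pair them (r of same-numbered deviations -0.01, -0.02 and 0.02); with a replicate block 2730 genes were higher and 2698 lower. Of the 44 genes, 10 lost their call under some alternative, and of the 25 others CCL2, GRIP2 and NQO1 did, as given beside each. Among genes that were not called, the log2 fold change with library size alone was -0.0071 for ADO, -0.071 for AKR1A1 and -0.0042 for SORD, and leaving out each library in turn gave -0.038 to 0.13 for ADO, -0.079 to 0.10 for AKR1A1 and -0.0023 to 0.12 for SORD. List medians turned negative for the polyol pathway (-0.03) and myo-inositol (-0.041) with library size alone, for the polyol pathway without circAASS library 2 (-0.015) or 3 (-0.0023), and for aldo-keto reductases with a mean of at least 1 RPKM (-0.27). With library size alone the log2 fold change was 0.025 for HSPA4L and 0.072 for NFAT5. With a pseudocount of 1 it was 1.86 for SLC5A3 and 0.20 for SLC6A12, and with 0.01 it was 2.62 for SLC6A12, by construction of the scale. The cause of the other changes was not tested.

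Below, other NFAT5 targets stands for the list of other targets of NFAT5 or of high tonicity. Counts of list genes called lower changed with library size alone to 3 for the NFAT5 partners (from 1), 2 for SLC5 relatives (from 1), 1 for cell volume (from 0) and 3 for the polyol pathway (from 1). Without the filter they were 0 for SLC6 relatives (from 1), 0 for aldo-keto reductases (from 2), 1 for myo-inositol (from 2), 0 for the other NFAT5 targets (from 1) and 0 for the polyol pathway. With a mean of at least 1 RPKM, which tests fewer genes, they were 0 for SLC6 relatives, 1 for aldo-keto reductases and 0 for glycerophosphocholine (from 1), and SLC6 relatives had 1 higher (from 2). With neither trend nor robust prior they were 1 for aldo-keto reductases, 0 for the other NFAT5 targets and 2 for the polyol pathway. With the replicate block they were 1 for myo-inositol and 0 for the other NFAT5 targets, and with median-of-ratios factors 0 for the other NFAT5 targets. Taurine and betaine genes had 1 called higher (from 2) with library size alone, the replicate block, no filter, or neither trend nor robust prior.

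Leaving out each library in turn gave 1 to 3 lower for HSP70 and HSP110 relatives, 1 to 2 for SLC5 relatives, 0 to 1 for SLC6 relatives, 0 to 1 for aldo-keto reductases, 1 to 2 for glycerophosphocholine, 1 to 2 for myo-inositol, 0 to 1 for the other NFAT5 targets and 0 to 1 for the polyol pathway. It gave 1 to 2 higher for the polyol pathway, 1 to 2 for taurine and betaine and 4 to 7 for cell volume. The counts called higher were 8 to 10 for the other NFAT5 targets, 7 to 10 for the NFAT5 partners and 10 to 12 for HSP70 and HSP110 relatives. The log2 fold change ran from 0.11 to 0.16 for NFAT5, 1.81 to 1.91 for AKR1B1, 2.02 to 2.21 for SLC5A3, 0.73 to 0.85 for SLC6A6, 0.95 to 1.27 for SLC6A12 and 0.05 to 0.14 for HSPA4L.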
